A study of Mus musculus with 36 samples.

Results

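The tumour necrosis factor (TNF) superfamily was followed at the RNA level in mouse colon and colon tumours. The members are Tnf, most of the panel's genes named Tnfsf and Tnfrsf, and Lta, Ltb, Ltbr, Fas, Fasl, Cd40, Cd40lg, Cd27 and Cd70. That makes 24 of the 988 genes on the panel, 12 ligands and 12 receptors. The rule goes by gene name. The study concerns the part of mast cells in colon tumours. It holds 36 labelled samples in 9 groups, of which 34 libraries were analysed here. A targeted panel of this kind (QIAseq Mouse Immuno-Oncology) amplifies a short stretch of each chosen transcript, so the level of a gene can be compared between samples but not with that of another gene.

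Of the 9 groups, 7 received azoxymethane (AOM), which is metabolised to a DNA-alkylating agent and causes tumours of the mouse colon. Colon tumours came from C57BL/6 wild-type mice (n = 5) and from C57BL/6 (cKitw-sh) mice with the Kit "sash" mutation (n = 5), at week 32 and 18 weeks after the last of 6 injections of 10 mg/kg per week. Sash mice carry a regulatory mutation of Kit that leaves adult tissues short of mast cells, although Kit also acts in other cells, such as pacemaker cells of the gut and melanocytes. Preneoplastic lesions of the colon came from both genotypes (n = 3 each) at week 14, after 3 injections over 3 weeks and 3 more weeks. A further set of wild-type mice at week 14 had AOM only (n = 3), cromolyn during AOM (n = 3), or AOM and then cromolyn for 3 weeks (n = 3). Cromolyn blocks the release of granules by mast cells. The 7 AOM groups have no counterpart without AOM here. MC-38 colon carcinoma cells, grown as allograft tumours in wild-type (n = 4 analysed) and sash hosts (n = 5 analysed) and labelled as saline-treated, make up the last 2 groups. The labels give no age or dose for them, and they stand for 1 cell line. In all groups whole tissue was used, so fewer cells of a type and less RNA per cell cannot be told apart.

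Ligands of the TNF superfamily are trimeric proteins, most of them anchored in the membrane of immune cells. Their receptors fall into those with a death domain, which can start apoptosis through caspase-8, and those that bind TRAF adaptors and activate NF-kappaB. In the gut, TNF is a main driver of inflammation, the lymphotoxins Lta and Ltb with their receptor Ltbr organise lymphoid follicles, and costimulatory pairs such as Tnfsf9 (4-1BB ligand) with Tnfrsf9 (4-1BB, CD137) sustain activated lymphocytes.

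The AOM libraries held 449880 to 1264354 counts each and the MC-38 libraries 480136 to 986415. Between 20 and 24 members had a count in each library, and each member had at least 1 count in every group. A level is the gene's share of a library's count, scaled by TMM over all libraries of a table and written as CPM, and values are listed in the order of the replicate numbers. Kit, the gene named in the genotype, read 95.3, 334, 136, 476 and 124 CPM in wild-type tumours and 77.8, 49.7, 99.3, 80.5 and 67.7 in sash tumours. It read 334, 509 and 452 CPM in wild-type lesions against 125, 114 and 143 in sash lesions. The lesions were thus apart for Kit, while the tumour groups overlapped. In MC-38 tumours Kit was near the detection limit, at 8.11, 18.1, 8.45 and 5.97 CPM in wild-type and 2.05, 23.2, 13.6, 17.7 and 8.08 CPM in sash hosts. Kit ranged from 308 to 660 CPM in the libraries of the AOM-only and cromolyn groups. The mast cell protease gene Cpa3 was lower in every sash library than in every wild-type library within each of the 3 genotype comparisons. The summed level of the epithelial markers Epcam and Car4 was 20270 to 89730 CPM in the AOM groups and 24.3 to 189 CPM in MC-38 tumours, so the markers of colon epithelium were nearly absent from the libraries labelled as colon with MC-38.

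**Figure D1:**
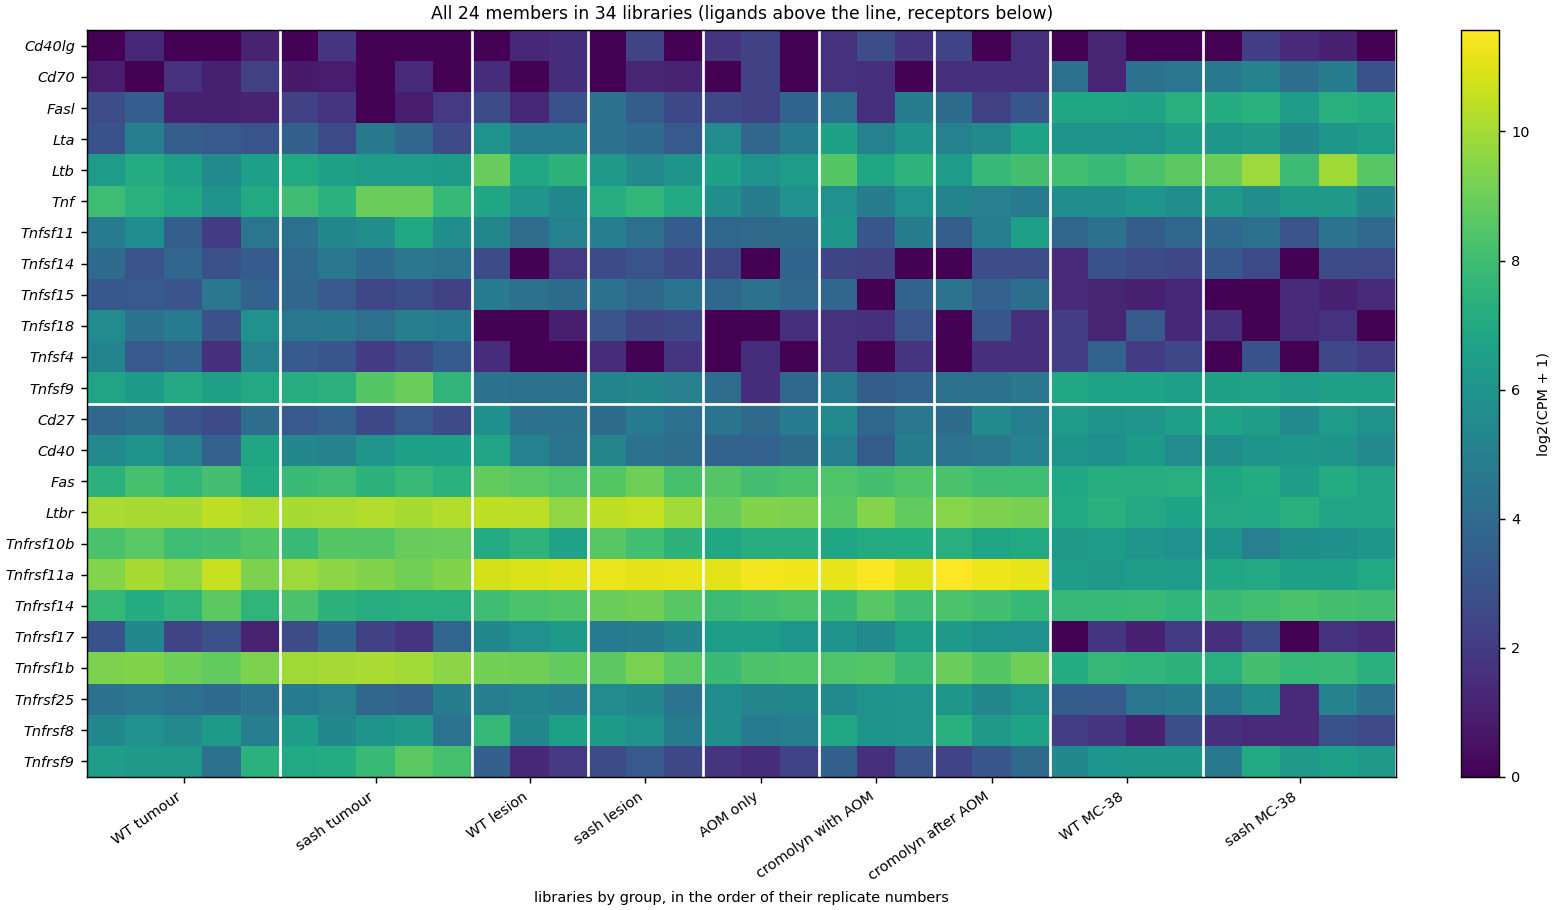
Level of each of the 24 members (rows, ligands above the horizontal white line and receptors below) in each of the 34 libraries (columns, by group), as log2(CPM + 1), where the colour runs from dark (0) to yellow (high) and is to be compared along a row only. AOM and MC-38 libraries come from separately scaled tables. Cd40lg stays dark throughout, Fasl and Cd70 are brighter in the MC-38 columns, and Tnfsf9 and Tnfrsf9 are brighter in tumours and MC-38 tumours than in the 14-week groups.

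Several of the 12 ligands were seen at a few counts in most groups. Cd40lg, the helper T cell ligand of Cd40, had group means of 0.324 to 3.44 CPM and at most 5 counts summed over any group. Cd70, the ligand of Cd27, had group means of 0.650 to 1.95 CPM in the AOM groups. In MC-38 tumours, whose table was scaled separately, Cd70 had means of 15.1 ± 9.42 CPM (SD, n = 4) in wild-type and 22.4 ± 11.01 CPM (SD, n = 5) in sash hosts. Fasl, by which cytotoxic cells engage Fas, had means of 1.98 to 16.0 CPM in the AOM groups and 119 ± 21.0 CPM (SD, n = 4) and 138 ± 33.6 CPM (SD, n = 5) in MC-38 tumours of wild-type and sash hosts. The 7 panel markers of cytotoxic and NK cells summed to 3819 to 7594 CPM in MC-38 libraries and 73.5 to 638 CPM in AOM libraries, and their part in the Fasl level was not tested. Tnfsf4, a costimulatory ligand of antigen-presenting cells, had means of 0.589 to 1.52 CPM in the 5 groups sampled at week 14. Outside the AOM tumours, Tnfsf18 had a mean of 0.333 to 3.67 counts per library and Tnfsf14 a mean of 1.33 to 4 counts. Apart from Cd40lg, Cd70 and Fasl, the members had a mean of at least 10 counts in at least 1 AOM group, and the number of members at that level was 20 in wild-type tumours, 17 in sash tumours and 13 to 17 in the other AOM groups.

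NF-kappaB is both the main effector of many of these receptors and a known regulator of some of the genes. The RefSeq promoter table (GRCm38.p6, a later build than the mm9 of the authors' processing) held 20 start sites of 18 of the 24 members. The kappaB consensus, searched on both strands in the 250 bases before each start, was found in 4 of the 20 windows, or 20.0%, and in 7.25% of all 32851 windows of the table. The matches are a description of the letters and not evidence of binding. All 4 are shown, whatever the results of their genes, and lie at Tnfrsf9, Ltb, Tnfrsf8 and Tnfrsf25 (death receptor 3). Their relation to the levels was not tested. Each line gives 30 bases in the direction of the gene, with the match in capitals.

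Ltb: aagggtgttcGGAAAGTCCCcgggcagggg

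Tnfrsf8: caaaacgcaGGGGAGCCCCCtgcgtgcgtg

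Tnfrsf9: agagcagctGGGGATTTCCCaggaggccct

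Tnfrsf25: aaaggggtctGGGGGCCTCCacttctcaga

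The Ltb stretch is chr17:35194410-35194439 on the plus strand, and its match lies on the minus strand, 77 bases before the start. For Tnfrsf8 it is chr4:145315312-145315341 on the minus strand, with the match 157 bases before the start. For Tnfrsf9 it is chr4:150927947-150927976 on the plus strand, 32 bases before the start, and for Tnfrsf25 chr4:152116305-152116334 on the plus strand, 18 bases before the start. The Tnfrsf8 and Tnfrsf9 matches read as the consensus on both strands and span overlapping copies of it.

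The largest differences within the superfamily lay between tumours and lesions. Tnfsf18, Tnfsf9 and Tnfrsf9 were higher in tumours of both genotypes and Tnfsf4 in those of the wild type, while Tnfrsf11a, Fas, Tnfrsf17 and Cd27 were lower in both, although the wild-type Fas value turned to 0.12 (log2) under a scaling by 2 reference genes. The edgeR fit covered all genes that passed a filter on low counts, 21 of the 24 members among them, with p-values adjusted over all genes tested and a threshold of 0.05. Tnfsf18, Tnfsf4, Tnfrsf9 and Tnfsf14 had lesion means of 0.333 to 4.33 counts, under the filter's minimum count of 10. They passed the filter through the tumours alone, so they could be called only as higher there. The counts of rises below include those of them that passed, so these counts depend in part on the filter. In the wild type, 12 of 21 members tested passed, 6 higher and 6 lower, against a background of 37.0% of the 848 genes tested (19.5% higher and 17.6% lower). In sash mice 11 of 21 passed, 5 higher and 6 lower, against 47.5% of genes (23.9% higher and 23.6% lower). The sash count was 7 without sash lesion 1 or sash lesion 2. Of the 10 costimulatory members 8 were tested, and 4 passed as higher and 1 as lower (Cd27) in the wild type, and 3 as higher and 2 as lower (Cd27, Tnfsf15) in sash. Without overlap between tumours and lesions, 6 members were higher and 4 lower in the wild type, where 16.7% and 11.7% of genes were, and 7 were higher and 6 lower in sash, where 27.5% and 25.1% were. Beyond the members whose values follow, Cd40, Tnfrsf8 and Tnfrsf25 had log2 differences of -0.08, -1.22 and -0.80 in the wild type and 1.41, 0.02 and -0.69 in sash, none of them past the threshold, and Cd40lg, Cd70 and Fasl were not tested. Fasl had 17 counts in wild-type tumours and 11 in lesions, and 12 and 22 in sash. The median log2 difference of the tested members was -0.47 in the wild type and 0.49 in sash, where the median of all tested genes was -0.00 and 0.02. Stage goes together with age, the number of AOM injections and the sampled tissue, which cannot be told apart, and both stage comparisons use groups that also enter the genotype comparisons.

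Tnfsf9, the ligand of 4-1BB made by antigen-presenting cells and by some tumour cells, had 108, 77.5, 127, 94.1 and 124 CPM in the wild-type tumours and 19.4, 18.2 and 19.8 CPM in the wild-type lesions. In sash mice it had 146, 174, 362, 496 and 190 CPM in tumours and 35.8, 40.3 and 31.8 CPM in lesions. Every tumour was above every lesion of its genotype. Tnfsf9 rose by a log2 difference of 2.43 ± 0.41 (SE, adjusted p 0.000525) in the wild type and of 2.91 ± 0.41 (SE, adjusted p 5.94e-05) in sash.

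Its receptor Tnfrsf9, which marks recently activated T cells, read 85.4, 73.3, 73.5, 19.6 and 169 CPM in wild-type tumours and 10.6, 1.51 and 2.83 CPM in wild-type lesions. The sash tumours had 132, 137, 225, 406 and 295 CPM and the sash lesions 5.37, 8.34 and 4.72 CPM. Again no tumour overlapped with a lesion, although the lesion values rest on 10 counts in the wild type and 13 in sash. Tnfrsf9 rose by 4.12 ± 0.76 (log2, SE, adjusted p 0.000953) in the wild type and by 5.25 ± 0.76 (adjusted p 9.31e-05) in sash. Without wild-type lesion 1 the wild-type difference was 5.13. Sash tumour 4 was the highest for both Tnfsf9 and its receptor.

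Tnfsf18, a costimulatory ligand of endothelial and antigen-presenting cells, was nearly absent from wild-type lesions. It had 46.8, 19.7, 27.3, 6.20 and 56.7 CPM in wild-type tumours and 0, 0 and 0.942 CPM in the lesions, the last from 1 count. The pooled counts were 151 and 1, a ratio of 82.6 with a 95% interval from 14.6 to 3283 that covers counting error at most. In sash mice it had 22.1, 24.8, 18.5, 29.9 and 27.5 CPM in tumours and 7.16, 4.17 and 4.72 CPM in lesions, with 11 counts in all the lesions. No tumour overlapped with a lesion of its genotype. The fitted log2 differences were 5.81 ± 0.92 (SE, adjusted p 0.00032) and 2.18 ± 0.65 (SE, adjusted p 0.0123). Without wild-type lesion 3, which holds the single count, the first was 7.90, and without sash lesion 2 the second missed the threshold (2.04, adjusted p 0.0551).

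Tnfsf4 followed the same order at lower counts, with 36.1, 8.46, 11.55, 2.07 and 34.3 CPM in wild-type tumours against 1.77, 0 and 0 CPM in the lesions. The pooled counts of 92 and 1 give a ratio of 50.3 (95% interval 8.81 to 2008). Tumours 1 and 5 were the high ones, as for Tnfsf18. The difference passed (4.97 ± 1.21, SE, adjusted p 0.00596), and the fitted size depended on lesion 1, which holds the 1 count (7.20 without it). Without wild-type tumour 1, 3 or 5, or with all AOM groups in 1 fit, Tnfsf4 missed the low-count filter and was not tested. In sash mice Tnfsf4 had 41 pooled counts in tumours and 3 in lesions, a ratio of 5.33 (95% interval 1.70 to 26.9), and did not pass.

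**Figure D2:**
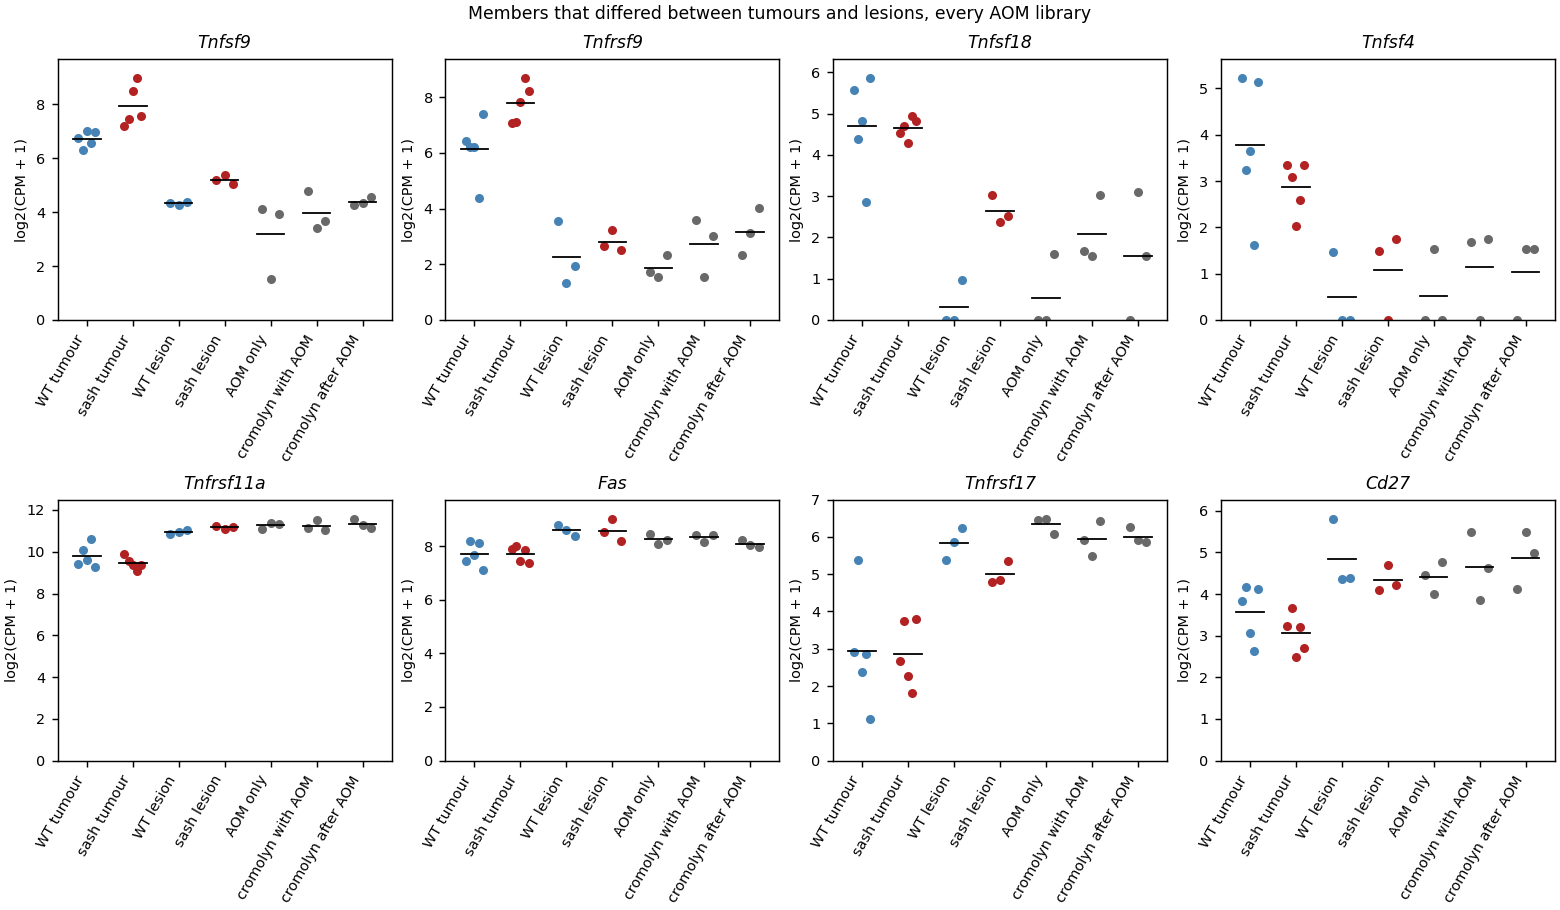
Level of 8 members in every AOM library as log2(CPM + 1), with a black line at the mean of the log values of each group (wild type blue, sash red, AOM-only and cromolyn groups grey). The upper row shows the ligands and receptor that are higher in tumours (Tnfsf4 passed in the wild type only), and the lower row members that are lower there (Fas in the wild type only without the scaling by 2 reference genes). The 5 sash tumours lie between 132 and 406 CPM for Tnfrsf9, above all lesions.

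Cd27, the receptor of naive and memory T cells that binds Cd70, was lower in tumours of both genotypes. It had 13.1, 16.9, 7.35, 5.17 and 16.5 CPM in wild-type tumours and 54.8, 19.7 and 19.8 CPM in lesions, and 8.39, 11.6, 4.62, 8.30 and 5.49 CPM in sash tumours against 16.1, 25.01 and 17.7 CPM in lesions. The groups did not overlap in either genotype. It fell by 1.43 ± 0.48 (log2, SE, adjusted p 0.0283) and by 1.35 ± 0.49 (SE, adjusted p 0.0327). The wild-type value missed the threshold without wild-type lesion 1 (-0.75, adjusted p 0.289) or wild-type tumour 3 (adjusted p 0.0689) and stood at it without wild-type tumour 4 (adjusted p 0.05), and the sash value missed it on leaving out any library but sash tumour 2, with an adjusted p of 0.0503 to 0.135.

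Tnfsf14 (LIGHT), which binds Ltbr and Tnfrsf14, was higher in tumours of both genotypes. It had 15.6, 7.05, 12.6, 6.20 and 9.45 CPM in wild-type tumours and 5.31, 0 and 2.83 CPM in lesions, and 14.5, 24.01, 15.4, 23.3 and 21.1 CPM in sash tumours against 5.37, 6.95 and 4.72 CPM in lesions. Tumours and lesions did not overlap, but the lesions held 6 and 12 counts in all. The differences were 1.87 ± 0.62 (log2, SE, adjusted p 0.0267) and 1.76 ± 0.55 (SE, adjusted p 0.0159). The wild-type call was lost without wild-type tumour 1 (1.69, adjusted p 0.0552), wild-type lesion 2 (1.37, adjusted p 0.0803) or 3 (1.96, adjusted p 0.0686), and its value was 2.56 without lesion 1. In the same way the sash call was lost without sash lesion 1 (1.73, adjusted p 0.0533) or sash lesion 3 (1.63, adjusted p 0.0577).

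The lymphotoxins were lower in tumours of the wild type. Ltb had 79.7, 144, 91.3, 45.5 and 92.2 CPM in wild-type tumours and 472, 116.7 and 179 CPM in lesions, so that tumour 2 lay above the lowest lesion. Lta had 6.57, 29.6, 10.5, 8.27 and 7.09 CPM in those tumours and 58.4, 25.7 and 27.3 CPM in the lesions, again with tumour 2 inside the range of the lesions. Ltb fell by 1.53 ± 0.42 (log2, SE, adjusted p 0.0117) and Lta by 1.63 ± 0.59 (SE, adjusted p 0.0418). Without wild-type lesion 1, which is the highest in both, neither passed (Ltb -0.71, adjusted p 0.184, and Lta -1.12, adjusted p 0.223). The Lta call was kept on leaving out wild-type tumour 2 (-2.21) and lost on leaving out any other wild-type library (adjusted p 0.0546 to 0.223). In sash mice Ltb had 128, 96.0, 79.3, 80.5 and 77.8 CPM in tumours and 75.2, 43.1 and 62.5 CPM in lesions, with every tumour above every lesion but no call (0.60 ± 0.44, SE, adjusted p 0.274). The sash value of Lta was -0.27 ± 0.62 (SE, adjusted p 0.741). Ltbr, their receptor on epithelial and stromal cells, had differences of -0.10 ± 0.18 and -0.20 ± 0.18 (SE), with adjusted p of 0.704 and 0.387.

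B cell markers were lower beside the lymphotoxins in wild-type tumours, where all 3 markers tested passed as lower. In sash the 3 were below 0 with none past the threshold, while the Ltb value was 0.60. The B cell markers Ms4a1, Cd79a, Cd22 and Pax5, 4 genes, summed to 1874, 612 and 475.6 CPM in wild-type lesions, 161, 63.9 and 31.8 CPM in sash lesions, 22.2, 406, 12.6, 18.6 and 28.4 CPM in wild-type tumours and 10.7 to 35.7 CPM in sash tumours. The library with the highest B cell sum was also the highest for Ltb in 7 of the 9 groups, and for Lta in 7. The library with the highest T cell sum was the highest for each of the 2 genes in 6 of the 9 groups, and of 7 T cell markers tested 3 passed as lower between stages in the wild type and 1 in sash. None of the 4 B cell markers was at 0 over a whole AOM group. The wild-type MC-38 group was 1 of the 7 groups for Ltb and for Lta, although Ms4a1 and Cd79a were at 0 in it. Its 2 highest B cell sums were 43.28 and 43.29 CPM. How often the highest libraries would coincide by chance was not worked out, and the part of B or T cells in the lymphotoxin values was not tested. Tnfrsf17 (BCMA), the survival receptor of plasma cells, had 6.57, 40.9, 4.20, 6.20 and 1.18 CPM in wild-type tumours and 40.7, 57.6 and 74.4 CPM in lesions. In sash mice it had 5.34, 12.4, 3.85, 2.49 and 12.8 CPM in tumours and 26.9, 27.8 and 40.1 CPM in lesions. Only wild-type tumour 2, the one with the high B cell sum, reached the lesions of its genotype. The 2 plasma cell markers on the panel (Prdm1, Irf4) did not fall with Tnfrsf17 as a sum. They summed to 103.4 to 318.5 CPM in wild-type tumours and 131.8 to 230.3 CPM in lesions. In sash the sums were 165.5 to 473.2 and 118.1 to 143.1 CPM. Of the 2, 0 passed in the wild type and 1 passed as higher in sash, and their part was not tested. Tnfrsf17 fell by 2.37 ± 0.74 (log2, SE, adjusted p 0.0221) and by 2.10 ± 0.76 (SE, adjusted p 0.0317). Without wild-type tumour 2 the first was -3.65. It missed the threshold without wild-type tumour 1 or 3 or lesion 2 or 3 (adjusted p 0.0506 to 0.0709), and the second missed it without sash tumour 1, 3 or 4 or any sash lesion (adjusted p 0.0571 to 0.0931).

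Tnfrsf11a (RANK), the receptor of Tnfsf11 (RANKL) on osteoclast precursors and on gut epithelium, was well counted, with 528 counts or more in each AOM tumour or lesion library. It had 679, 1068, 771, 1540 and 624 CPM in wild-type tumours and 1827, 1980 and 2113 CPM in lesions. In sash mice the values were 934, 758, 669, 545 and 667 CPM in tumours and 2404, 2209 and 2321 CPM in lesions. The groups did not overlap, with wild-type tumour 4 the closest to the lesions. Tnfrsf11a fell by 1.12 ± 0.24 (log2, SE, adjusted p 0.00272) and by 1.71 ± 0.24 (SE, adjusted p 6.27e-05), and no single library ended either call. In MC-38 tumours, which nearly lack epithelial markers, it had 75.1 to 128 CPM in the separately scaled table. The 2 epithelial markers did not move together. Epcam, an adhesion protein of epithelial cells, had 22440 to 34760 CPM in tumours and 21430 to 28960 CPM in lesions (0.20 ± 0.16 in the wild type and 0.07 ± 0.16 in sash, log2, SE, adjusted p 0.33 and 0.73). Car4, a carbonic anhydrase of surface colonocytes, fell in both, with differences of -2.69 ± 0.95 (SE, adjusted p 0.037) and -5.83 ± 1.06 (SE, adjusted p 0.00051), and the part of epithelial cells in the Tnfrsf11a difference was not tested. Tnfsf11 did not pass in either genotype (-0.47 ± 0.70 and 1.57 ± 0.74, SE, adjusted p 0.629 and 0.0898).

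Of the death receptors, Fas was lower in tumours of both genotypes, apart from the scaling named above, and Tnfrsf10b was higher in those of the wild type. Fas, the receptor of Fasl, had 173, 295, 201, 278 and 136 CPM in wild-type tumours and 446, 392.4 and 334 CPM in lesions, and 236, 256, 175, 231 and 166 CPM in sash tumours against 369, 515 and 290 CPM in lesions. All tumours lay below all lesions of their genotype. Fas fell by 0.89 ± 0.26 (log2, SE, adjusted p 0.0148) and by 0.88 ± 0.25 (SE, adjusted p 0.0109), although the sign of the wild-type value turned under a scaling by 2 reference genes (0.12). The calls were lost without wild-type lesion 1 (-0.76, adjusted p 0.0854) or 2 (-0.86, adjusted p 0.0519) and without sash lesion 2 (-0.64, adjusted p 0.097). Tnfrsf10b, the mouse TRAIL receptor, had 299, 391.8, 254, 274 and 343 CPM in wild-type tumours and 136, 182 and 99.8 CPM in lesions, with no overlap, and rose by 1.13 ± 0.31 (SE, adjusted p 0.0115). Its sash value was 0.49 ± 0.30 (SE, adjusted p 0.175), where lesions of 372, 265 and 176 CPM overlapped with tumours of 226, 367, 354, 477 and 490 CPM. Tnf had 0.97 ± 0.48 and 1.00 ± 0.47 (SE) in the wild type and in sash, with adjusted p of 0.119 and 0.0882.

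Another 3 members passed in sash mice. Tnfrsf1b (TNF receptor 2), found on regulatory T cells and myeloid cells, had 967, 1017, 1100, 1000 and 746 CPM in sash tumours and 406, 611 and 395 CPM in sash lesions. It rose by 1.03 ± 0.20 (log2, SE, adjusted p 0.000707), with no overlap, and had 0.12 ± 0.19 (SE, adjusted p 0.645) in the wild type. Tnfrsf14 (HVEM), which binds LIGHT, had 306, 180, 145, 156 and 158 CPM in sash tumours and 489, 533 and 381 CPM in lesions. It fell by 1.31 ± 0.30 (SE, adjusted p 0.00238), against -0.47 ± 0.30 (SE, adjusted p 0.222) in the wild type. Tnfsf15 (TL1A), the ligand of Tnfrsf25, had 12.97, 8.28, 4.62, 5.81 and 3.66 CPM in sash tumours and 19.7, 13.9 and 20.0 CPM in lesions. It fell by 1.33 ± 0.47 (SE, adjusted p 0.0296) but missed the threshold without sash tumour 3, 4 or 5 or sash lesion 1 or 3 (adjusted p 0.0642 to 0.0904). That these passed in 1 genotype does not show that the genotypes differ, which is tested further on.

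**Figure D3:**
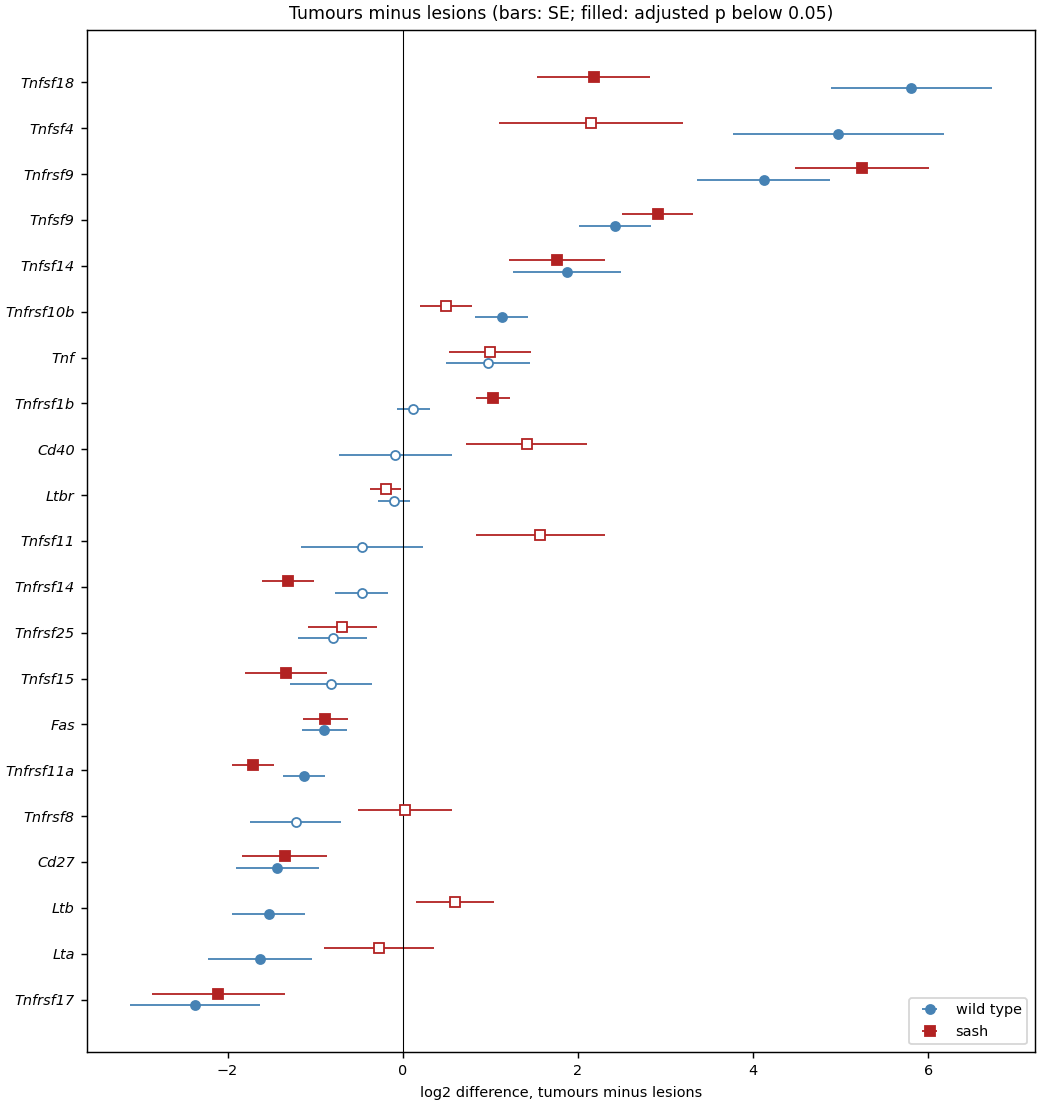
Log2 difference of tumours minus lesions with its SE for each of the 21 members tested, in wild type (blue circles) and sash (red squares); filled symbols passed at an adjusted p below 0.05. Tnfsf18, Tnfsf4, Tnfrsf9, Tnfsf9 and Tnfsf14 lie to the right in both genotypes, and Tnfrsf17, Cd27, Tnfrsf11a and Fas to the left (the wild-type Fas value turns to 0.12 under the scaling by 2 reference genes).

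The rises between stages passed under each scaling tried, while most of the falls were lost under the scaling by 2 reference genes. Each other scaling moved the median difference of all genes up. These fits could therefore weaken the falls but hardly the rises, and do not show that the rises are the firmer. When the libraries were scaled on B2m and Rpl13a, the 2 of 11 common reference genes on the panel, the median of all genes moved up by 0.95 (log2) in the wild type and by 0.57 in sash. In the wild type 9 members were then called higher and 0 lower, the 6 rises among them, and over all genes 451 were called higher and 16 lower in place of 165 and 149. In sash 10 members were then higher and 1 lower, Tnfrsf11a, and over all genes 326 were higher and 76 lower in place of 203 and 200. Under that scaling the wild-type Tnfrsf11a difference was -0.18, Ltb -0.42, Cd27 -0.38 and Lta -0.53, each below the median of all genes of 0.94. With plain library totals, which moved that median by 0.22 and 0.18, the members called were 6 higher and 3 lower in the wild type and 5 higher and 3 lower in sash, and over all genes 223 were higher and 90 lower and 254 were higher and 150 lower. Neutrophil markers moved with stage: the 4 on the panel summed to 62.0 to 257 CPM in wild-type tumours, 367 to 735 CPM in sash tumours and 6.06 to 15.3 CPM in lesions. The 8 T cell markers summed to 95.5 to 562 CPM in tumours and 321 to 1004 CPM in lesions. Of 3 regulatory T cell markers, 1 passed as higher in the wild type and 2 in sash. Of 6 macrophage and monocyte markers, 1 passed as higher and 1 as lower in the wild type, and 2 and 1 in sash. Over all genes 37.0% and 47.5% passed. The part of any of these cell types in the members' differences was not tested.

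Between sash and wild-type tumours, which addresses the effect of the mutation in established tumours, Tnfrsf1b, Tnfsf9, Tnfrsf9 and Tnf had higher values in sash tumours, and none of them passed. In edgeR's test 0 of 18 members tested and 0% of 797 genes passed. At an unadjusted p below 0.05 there were 6 members and 159 genes, or 19.9% of the genes, and DESeq2 called 3 members and 81 genes. The median log2 difference was 0.18 over the members and -0.04 over all genes tested.

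Tnfrsf1b had 630, 668, 515, 435 and 624 CPM in wild-type tumours and 967, 1017, 1100, 1000 and 746 CPM in sash tumours, so that every sash tumour was above every wild-type tumour. The difference was 0.73 ± 0.16 (log2, SE) with an adjusted p of 0.0684 in edgeR's test and 0.00216 in DESeq2. Tnfsf9 also showed no overlap, with 77.5 to 127 CPM in wild-type and 146 to 496 CPM in sash tumours (1.35 ± 0.35, SE, adjusted p 0.0749 in edgeR and 0.00601 in DESeq2). Without sash tumour 1 it passed in edgeR's test (1.52, adjusted p 0.0479). Members without overlap were these 2, both higher in sash, where 3.89% of all genes tested were.

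Tnfrsf9 overlapped between the genotypes through wild-type tumour 5 at 169 CPM (1.48 ± 0.50, SE, adjusted p 0.131 in edgeR and 0.0327 in DESeq2). Tnf, the founding cytokine of the family, had 255, 166, 118, 57.9 and 128 CPM in wild-type tumours and 258, 165, 490.2, 483 and 217 CPM in sash tumours. The groups overlapped, with sash tumours 3 and 4 highest (1.13 ± 0.42, SE, adjusted p 0.174). When all AOM groups were fitted together, Tnf, Tnfrsf1b, Tnfrsf9 and Tnfsf9 passed (adjusted p 0.0396, 0.00717, 0.0309 and 0.0111), among 88 genes where the test of the 2 groups alone called 0. The summed neutrophil markers did not overlap between the same groups either, at 62.0 to 257 and 367 to 735 CPM. Of the 3 neutrophil markers tested 0 passed, and their part in these values was not tested. The remaining members tested had log2 differences from -1.47 (Tnfsf4) to 1.36 (Tnfsf11).

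**Figure D4:**
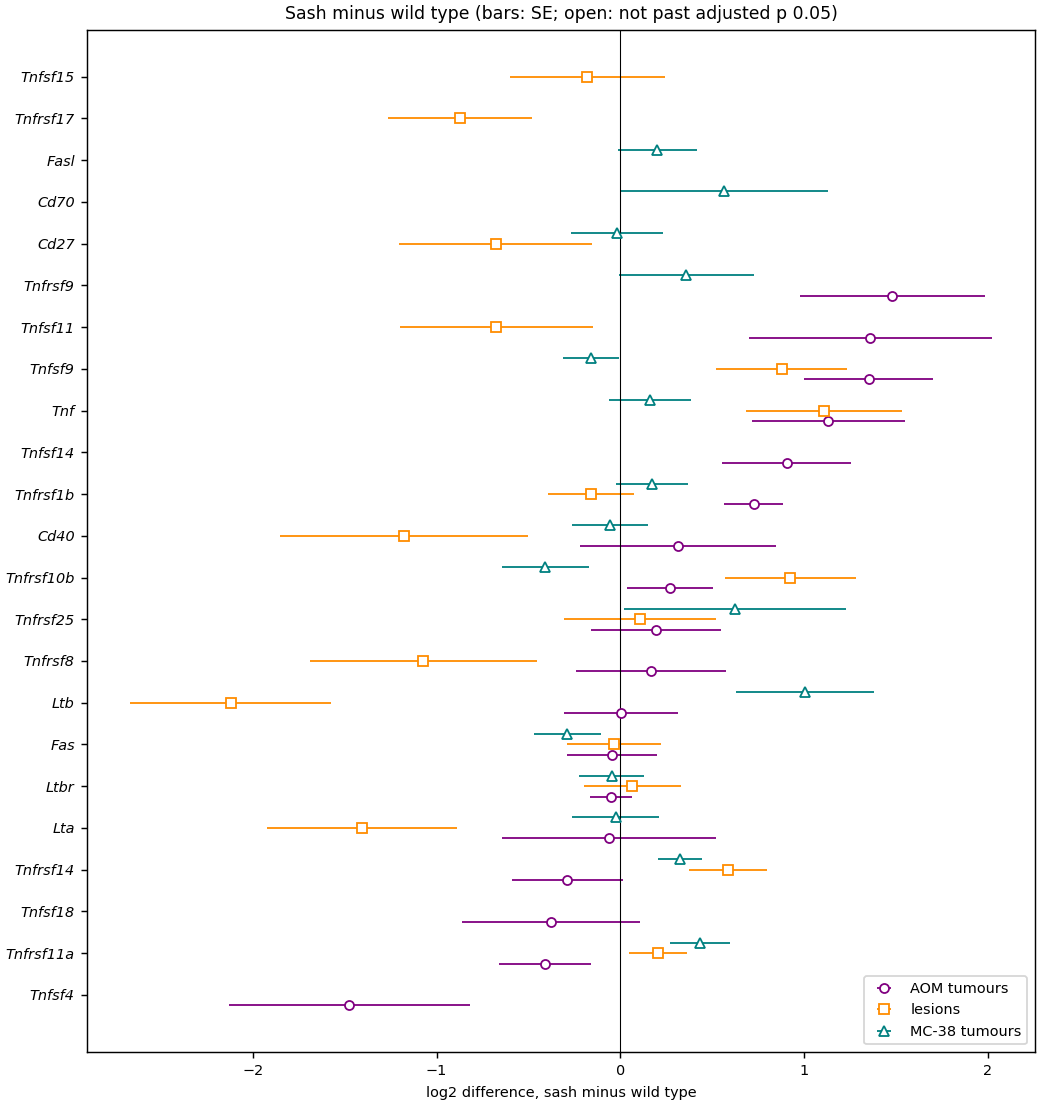
Log2 difference of sash minus wild type with its SE for the members tested in AOM tumours (circles), lesions (squares) and MC-38 tumours (triangles); all symbols are open because none passed at an adjusted p below 0.05. Tnfsf9 lies at 1.35 in AOM tumours, 0.88 in lesions and -0.16 in MC-38 tumours, and Ltb at 0.00, -2.12 and 1.01.

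In the lesions, which address the early steps, Ltb and Lta had lower values in sash mice and Tnf and Tnfrsf10b higher values. None of the 4 passed in the test without a block, and all but Lta passed when the replicate number was used as a block. No label pairs the lesions, so the calls with the block rest on an assumed pairing. In the test without the block 0 of 17 members passed against 2.84% of 775 genes tested. At an unadjusted p below 0.05 there were 6 members and 19.1% of the genes, and DESeq2 called 1 member, Ltb, and 72 genes. Same-numbered lesions deviated together from their group means, and with the replicate block 3 members passed, Ltb (-1.90, adjusted p 0.00297), Tnf (1.21, adjusted p 0.0443) and Tnfrsf10b, among 84 genes. The median difference was -0.16 over the members and 0.05 over all genes.

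Ltb had 472, 116.7 and 179 CPM in wild-type and 75.2, 43.1 and 62.5 CPM in sash lesions, and Lta had 58.4, 25.7 and 27.3 CPM against 19.7, 15.3 and 8.25 CPM. Neither gene overlapped between the genotypes. Without the block the differences were -2.12 ± 0.55 (log2, SE, adjusted p 0.079) and -1.40 ± 0.52 (SE, adjusted p 0.185). Without wild-type lesion 2 or 3 Ltb passed (-2.40 and -2.33, adjusted p 0.0453 and 0.0451). It ranged over all single omissions from -2.40 to -1.28, and the Lta value from -1.63 to -0.90, in each case nearest to 0 without wild-type lesion 1. Tnfrsf17 also did not overlap, with sash lesions at 26.9, 27.8 and 40.1 CPM against 40.7, 57.6 and 74.4 CPM (-0.87 ± 0.39, SE, adjusted p 0.269). The B cell sum was 475.6 to 1874 CPM in wild-type and 31.8 to 161 CPM in sash lesions, and that of the 5 follicle markers on the panel (Cxcl13, Ccl19, Cr2, Madcam1, Cxcr5) was 541 to 1438 and 183 to 192 CPM. Of the 4 B cell markers, Ms4a1 and Cd22 passed as lower. The part of B cells or follicles in the lymphotoxin values was not tested.

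Tnf had 113, 63.6 and 41.4 CPM in wild-type and 147, 203 and 131 CPM in sash lesions, without overlap (1.11 ± 0.42 without the block, SE, adjusted p 0.203). Tnfrsf14 had 258, 314 and 345 CPM against 489, 533 and 381 CPM (0.59 ± 0.21, SE, adjusted p 0.175), and Tnfsf9 19.4, 18.2 and 19.8 CPM against 35.8, 40.3 and 31.8 CPM (0.88 ± 0.36, SE, adjusted p 0.218). With Tnfrsf11a, 4 members were higher in sash without overlap, where 10.1% of all genes were, and with Lta, Ltb and Tnfrsf17 3 were lower, where 14.2% were. Tnfrsf10b had 136, 182 and 99.8 CPM in wild-type and 372, 265 and 176 CPM in sash lesions and overlapped slightly (0.93 ± 0.36 without the block, SE, adjusted p 0.203). Tnfsf18 had 1 count in the wild-type and 11 in the sash lesions, a ratio of 12.1 with a 95% interval from 1.75 to 519 that covers counting error at most.

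The difference of the genotype effects between stages was tested as an interaction, tumours minus lesions. Ltb, Tnfrsf1b, Tnfsf18 and Tnfsf11 had the smallest p, and 0 of 21 members and 0% of 848 genes passed in edgeR's test. At an unadjusted p below 0.05 there were 3 members and 128 genes, or 15.1%, and DESeq2 called Ltb among 19 genes. Ltb had 2.13 ± 0.62 (log2, SE, adjusted p 0.17 in edgeR and 0.0342 in DESeq2), with genotype differences of -2.12 in lesions and 0.00 in tumours. Without wild-type lesion 1 the Ltb value was 1.32. Tnfrsf1b had 0.91 ± 0.27 (SE, adjusted p 0.17), with genotype differences of 0.73 in tumours and -0.16 in lesions. Tnfsf18 had -3.62 ± 1.18 (SE, adjusted p 0.186), and its wild-type lesions rest on 1 count. Without wild-type lesion 3, which holds that count, the value was -5.71. Tnfsf18 passed in 1 of 24 alternative fits, the one without wild-type tumours 2 and 4 (-4.09, adjusted p 0.0452). These 2 are the lowest wild-type tumours for Tnfsf18, so leaving them out enlarges the value by itself. It passed in 0 of 16 fits that left out a single library. Tnfsf11 had 2.04 ± 1.01 (SE, adjusted p 0.337), with 26.3, 47.9, 10.5, 3.10 and 22.5 CPM in wild-type tumours, 17.5, 40.6, 52.3, 123 and 53.1 CPM in sash tumours, 38.9, 16.7 and 32.96 CPM in wild-type lesions and 30.4, 18.1 and 9.43 CPM in sash lesions. For Tnfsf11, sash tumour 4 stood highest and all 4 groups overlapped with another.

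The cromolyn groups were compared with AOM only to ask what a mast cell stabiliser does during or after the carcinogen, and both comparisons share the AOM-only libraries. Tnfrsf8 (CD30), a receptor of activated lymphocytes, had higher values in both cromolyn groups and passed for cromolyn after AOM, and Ltb and Lta had higher values in both. For cromolyn after AOM 1 of 15 members passed against 4.82% of 768 genes tested. For cromolyn with AOM 0 of 15 members passed, against 0.260% of genes. At an unadjusted p below 0.05 there were 2 members and 16.7% of genes, and DESeq2 called 1 member, Ltb. Between the cromolyn groups 0 of 15 members and 0% of genes passed in edgeR's test, with 1 member and 65 genes, or 8.46%, at an unadjusted p below 0.05 and 0 members and 6 genes in DESeq2.

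Tnfrsf8 had 53.7, 26.3 and 30.4 CPM after AOM only, 116.6, 63.2 and 63.9 CPM with cromolyn during AOM, and 163, 72.4 and 105 CPM with cromolyn after it. All cromolyn libraries were above all AOM-only libraries. The differences were 1.14 ± 0.41 (log2, SE, adjusted p 0.197) and 1.60 ± 0.40 (SE, adjusted p 0.0428). The second was lost on leaving out any of its 6 libraries (1.25 to 1.99, adjusted p 0.0529 to 0.15) and when all AOM groups were fitted together (1.61, adjusted p 0.381). In wild-type lesions, labelled with the same treatment as AOM only, Tnfrsf8 had 205, 39.4 and 93.2 CPM.

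Ltb had 98.1, 58.3 and 83.2 CPM after AOM only, 361, 111 and 185 CPM with cromolyn during AOM and 83.5, 211 and 282 CPM with cromolyn after it. The first cromolyn group lay above AOM only and the second overlapped with it. The differences were 1.44 ± 0.51 (SE, adjusted p 0.204 in edgeR and 0.0485 in DESeq2) and 1.25 ± 0.51 (SE, adjusted p 0.189). Without library 1 of cromolyn with AOM, the highest, the first was 0.87. Lta had 46.7, 13.2 and 26.4 CPM, then 96.8, 32.5 and 61.6 CPM, then 32.6, 43.8 and 105 CPM, with overlap and differences of 1.14 ± 0.57 (SE, adjusted p 0.326) and 1.07 ± 0.57 (SE, adjusted p 0.298). The first Lta value was 0.70 without library 1 of cromolyn with AOM and 1.69 without library 1 of AOM only.

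Cd40, the receptor by which B cells and dendritic cells receive T cell help, had 11.7, 11.3 and 16.2 CPM after AOM only, 30.8, 9.57 and 28.4 CPM with cromolyn during AOM and 20.4, 22.9 and 34.3 CPM after it. Only the last group was apart from AOM only (0.95 ± 0.48, SE, adjusted p 0.265, and 0.76 ± 0.49, adjusted p 0.441, for cromolyn with AOM). Without library 1 of cromolyn with AOM the latter was 0.47, and without its library 2 it was 1.14. Members without overlap were 2 for cromolyn with AOM (Ltb, Tnfrsf8) and 3 for cromolyn after AOM (Cd40, Tnfrsf1b, Tnfrsf8), all higher, where 13.8% of all genes were in either comparison. Tnfrsf1b had 238, 322 and 343 CPM after AOM only, 328, 360 and 232 CPM with cromolyn during AOM and 481, 360 and 508 CPM after it. The last group lay above both others. The difference from AOM only was 0.55 ± 0.20 (SE, adjusted p 0.144) and that from cromolyn with AOM 0.53 ± 0.20 (SE, adjusted p 0.411). Tnfrsf1b was the 1 member without overlap between the cromolyn groups, where 6.64% of genes were higher.

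B cell and follicle markers were high in the libraries high in lymphotoxin. The B cell sum was 243, 90.3 and 182 CPM after AOM only, 1545, 295 and 469 CPM with cromolyn during AOM and 204, 554 and 1289 CPM after it. The follicle sum was 839, 465 and 574 CPM, then 2310, 693 and 1148 CPM, then 519, 1070 and 1622 CPM. Of the follicle markers, Ccl19 and Madcam1 passed as higher for cromolyn after AOM. The library highest for the follicle sum was highest for Ltb and Lta in each of these 3 groups, and for Tnfrsf8 in the AOM-only and the cromolyn with AOM groups. Their part in the members' values was not tested. Between the cromolyn groups Ltbr, Tnf and Fas had 0.35 ± 0.21, -0.57 ± 0.38 and -0.25 ± 0.17 (log2, after minus with, SE), with adjusted p of 0.65, 0.688 and 0.688, and the Fas value turned to 0.16 under the scaling by 2 reference genes. The Ltbr value was 0.18 without library 1 of cromolyn with AOM and 0.67 without its library 2. Tnf had 36.6, 32.4 and 26.7 CPM with cromolyn after AOM, 57.2, 28.7 and 56.8 CPM with cromolyn during AOM and 53.7, 28.2 and 56.8 CPM after AOM only, which overlap.

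**Figure D5:**
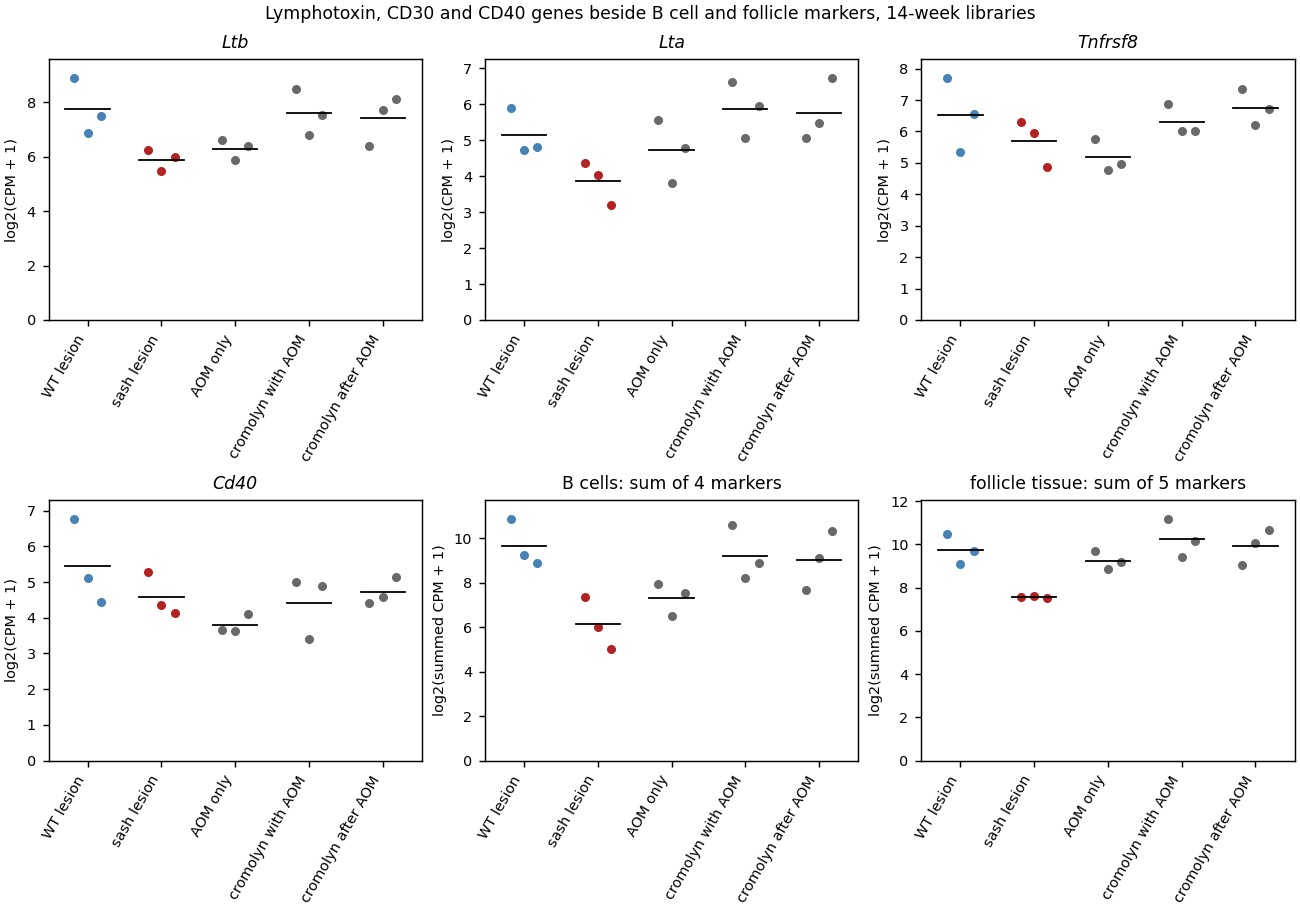
Levels of Ltb, Lta, Tnfrsf8 and Cd40 in each 14-week library as log2(CPM + 1), and the summed levels of the 4 B cell and the 5 follicle markers as log2(summed CPM + 1); black lines are means of the log values. Wild-type lesions are blue, sash lesions red and the AOM-only and cromolyn groups grey. Sash lesions have the lowest mean for both marker sums and for Ltb and Lta, and in each of the 5 groups the library with the highest B cell sum is the highest for Ltb.

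Wild-type lesions and the AOM-only group carry the same labelled genotype, age, source and treatment under different sample titles, and the labels do not say what sets them apart. Ltbr and Tnfrsf1b were higher in the lesion set, and Ltb and Cd40 had higher values there. Of 14 members tested 2 passed, against 15.6% of 762 genes. Ltbr had 1424, 1383 and 805 CPM in the lesion set and 472, 666 and 614 CPM in the AOM-only set, without overlap (1.00 ± 0.25, log2, SE, adjusted p 0.0287). Tnfrsf1b had 571, 538 and 436 CPM against 238, 322 and 343 CPM (0.73 ± 0.21, SE, adjusted p 0.0463). Neither passed on leaving out a library other than wild-type lesion 3 (adjusted p 0.0797 to 0.184) or under scaling by 2 reference genes. That scaling moved the median of all genes by -0.60 and called 1 member higher (Cd40) and 2 lower (Tnfrsf11a, Tnfrsf17). Over all genes it called 31 higher and 226 lower in place of 66 and 53. Tnfrsf1b also missed the threshold with plain library totals (0.71, adjusted p 0.0612) and with the replicate block (0.73, adjusted p 0.0746). Ltb had 1.64 ± 0.50 (SE, adjusted p 0.0552) and Cd40 1.95 ± 0.66 (SE, adjusted p 0.0722). Ltb passed without wild-type lesion 2 (1.99, adjusted p 0.0384) or 3 (1.85, adjusted p 0.0263), and Cd40 without lesion 3 (2.36, adjusted p 0.0134). Without wild-type lesion 1, the highest in both, the values were 0.84 and 0.95. Without overlap, 4 members were higher in the lesion set (Cd40, Ltb, Ltbr, Tnfrsf1b), where 21.1% of genes were, and 2 lower (Tnfrsf11a, Tnfrsf25), where 19.4% were.

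In MC-38 tumours the host genotype was compared for a graft of 1 line. Ltb, Tnfrsf11a and Tnfrsf14 had higher mean values in sash hosts. Of the members, 0 of 16 members passed in edgeR's test or in DESeq2, against 1.26% of 714 genes in edgeR's test. At an unadjusted p below 0.05 there were 3 members and 21.8% of genes. Tnfrsf14 had 209, 218, 231 and 193 CPM in wild-type and 238, 267, 302, 283 and 258 CPM in sash hosts. Tnfrsf11a had 89.2, 75.1, 84.5 and 80.6 CPM against 117.0, 126, 96.8, 95.3 and 128 CPM. Neither overlapped, where 4.62% of all genes were higher in sash without overlap. The differences were 0.33 ± 0.12 (log2, SE, adjusted p 0.163) and 0.44 ± 0.16 (SE, adjusted p 0.164).

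Ltb had 264, 220, 304 and 399 CPM in wild-type hosts and 486, 926, 246, 963 and 380 CPM in sash hosts, with sash tumours 2 and 5 far above the rest and an overlap through tumours 4 and 6 (1.01 ± 0.38, SE, adjusted p 0.164). The T cell sum was 1696 to 2708 CPM in wild-type and 1798 to 3052 CPM in sash hosts and was highest in sash tumours 2 and 5. Among the sash hosts these 2 tumours were also the highest for the summed markers of cytotoxic and NK cells (7594 and 6602 CPM), macrophages and monocytes (3756 and 3197 CPM), B cells (102.9 and 76.5 CPM), stroma (30040 and 21820 CPM) and epithelium (189 and 138 CPM). In sash hosts the B cell sum rests on Cd22 and Pax5, since Cd79a was at 0 and Ms4a1 had 1 count, in tumour 5. The part of any of these cell types in the Ltb value was not tested. Tnfrsf10b had 74.6, 84.2, 65.5 and 56.7 CPM against 61.6, 31.5, 52.7, 54.3 and 67.8 CPM, which overlap (-0.41 ± 0.24, SE, adjusted p 0.326, and -0.25 without sash tumour 2). Tnf had 50.3, 53.1, 66.5 and 53.7 CPM and 75.9, 51.5, 74.7, 75.3 and 40.4 CPM (0.16 ± 0.22, SE, adjusted p 0.69). The pair that was high in AOM tumours, Tnfsf9 and Tnfrsf9, had -0.16 ± 0.15 (SE, adjusted p 0.564) and 0.36 ± 0.37 (SE, adjusted p 0.591) here. The mean level of Tnfsf9 was 105 ± 12.2 CPM (SD, n = 4) in wild-type and 94.6 ± 6.95 CPM (SD, n = 5) in sash hosts. For Fasl and Cd70, which had a mean of 10 counts in the MC-38 groups alone, the differences were 0.20 ± 0.22 (SE, adjusted p 0.603) and 0.56 ± 0.57 (SE, adjusted p 0.589).

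Of 44 genes that carry the signal of these receptors to caspases and NF-kappaB, 13 were on the panel and all 13 were tested in each comparison. Between stages in the wild type 4 rose, the adaptor Traf4 (1.21 ± 0.31, log2, SE, adjusted p 0.00854), the NF-kappaB subunits Rela (0.85 ± 0.16, adjusted p 0.001) and Nfkb1 (0.70 ± 0.21, adjusted p 0.0182) and the kinase scaffold Ikbkg (0.48 ± 0.18, adjusted p 0.046). The inhibitor Nfkbib (-0.41 ± 0.15, adjusted p 0.0464) and Casp8, the first caspase below death receptors (-0.42 ± 0.14, adjusted p 0.0263), fell. In sash Traf4 (0.89 ± 0.31, adjusted p 0.0264) and Rela (0.56 ± 0.16, adjusted p 0.00995) rose, and the kinase Chuk (-0.55 ± 0.18, adjusted p 0.0221) and the deubiquitinase Cyld (-0.42 ± 0.17, adjusted p 0.0484) fell. The scaling by 2 reference genes moved the median of all genes by 0.95 in the wild type and 0.57 in sash, more than each of these falls. The 13 genes are given under the TMM scaling only and without leaving out libraries. So 6 of the 13 passed in the wild type and 4 in sash, beside 37.0% and 47.5% of all genes tested. The median of the 13 was 0.13 in the wild type and 0.09 in sash, beside -0.00 and 0.02 over all genes tested. In lesions 1 passed, the inhibitor Nfkbia, an NF-kappaB target itself, which was higher in sash (0.85 ± 0.18, adjusted p 0.0476), beside 2.84% of genes. In the other comparisons with a test 0 of the 13 passed.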

How the data were processed

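RNA was read with a targeted amplicon panel on a MiSeq, per the labels' protocols. The authors deposited whole-number counts per gene without normalisation, in 1 table for AOM libraries and 1 for MC-38 libraries. Mouse build mm9 and DESeq2 are named in the submitters' processing notes. What aligned the reads, what counted them, and if a count is a molecule or a read, is not given in the sources used here. Intervals therefore cover counting error at most. Each table has 993 entries, of which 5 are control entries at 0 and were left out. One MC-38 sample of each genotype, 2 samples in all, was not analysed here.

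Genes were filtered with filterByExpr (minimum count 10, minimum total 15) and TMM-scaled. Tests were edgeR's quasi-likelihood F test (edgeR version 4.0.16 under R 4.3.3), robust, with Benjamini-Hochberg adjustment over all genes tested and a threshold of 0.05. A genotype or drug comparison used its own groups, and stage used both tumour and both lesion groups in a single fit. The code was tested on simulated data. Alternatives were DESeq2 1.42.0, other scalings, no filter, all AOM groups in 1 fit, a replicate block and leaving out each library. A member passed the text's rule for values by passing a test or by being among the 4 of smallest p with a mean of 10 counts in a group. Same-numbered lesions deviated together (correlations 0.388, 0.163 and 0.523), which is the only ground for pairing them. Same-numbered MC-38 tumours had correlations of 0.264, 0.00465 and 0.641, so the lesion values are no proof of a pairing. Replicates of a group differed by more than counting noise (chi-square per degree of freedom 5.85 to 194 in 51 pairs). The labels do not say that samples are separate mice, so p-values measure the spread between samples. The members, gene lists and tests were chosen with earlier results of these data known. Some genes of the panel are not reported here.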

Additional observations from a re-analysis of the deposited data

Results flagged for a closer look

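Of 70 sets of a member in a group of 4 or 5 libraries, 5 held a single library set apart from the rest by the gap test for one outlying value, a rule that marks about 1 set in 20 by chance. Lta was highest in wild-type tumour 2 at 29.6 CPM, where the other 4 had 6.57 to 10.5 CPM. Tnfrsf14 was highest in wild-type tumour 4 at 401 CPM, beside 142 to 217 CPM, and in sash tumour 1 at 306 CPM, beside 145 to 180 CPM. In MC-38 tumours of wild-type hosts Lta was highest in tumour 5 at 88.1 CPM, beside 61.2 to 62.2 CPM, and Tnfrsf9 was lowest in tumour 1 at 40.5 CPM, beside 67.3 to 70.7 CPM.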

How the results depend on the processing

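Counts of members past the threshold moved as follows, with the count over all genes in brackets. Sash against wild-type tumours went from 0 (0 genes) to 3 (81) with DESeq2, 4 (88) with all AOM groups in 1 fit and 0 to 1 (0 to 17) on leaving out a library. The lesions went from 0 (22) to 1 with DESeq2 (72), 1 without the low-count filter (36), 1 with all groups in 1 fit (22), 3 with the replicate block (84) and 0 to 1 (0 to 68) on leaving out a library. Cromolyn with AOM went from 0 (2) to 1 (42) with DESeq2. Cromolyn after AOM went from 1 (37) to 0 (0) with all groups in 1 fit and to 0 (1 to 8) on leaving out any library. The stage difference went from 12 (314) to between 8 and 15 (183 to 367) in wild type and from 11 (403) to between 7 and 11 (298 to 389) in sash on leaving out a library. The interaction went from 0 (0) to 1 (19) with DESeq2 and 1 (8) without wild-type tumours 2 and 4. Wild-type lesions against AOM only went from 2 (119) to 5 (154) with DESeq2 and 0 to 4 (11 to 268) on leaving out a library. Fas turned to 0.116 in the wild-type stage comparison and to 0.157 between cromolyn groups under scaling by 2 reference genes. In the other sets, whose samples likewise share only a number, the replicate block gave 0 members in tumours and in MC-38 tumours, 0 and 1 for cromolyn with and after AOM, 8 and 9 for the stages, and 3 for wild-type lesions against AOM only. Few counts limit Cd40lg, Cd70, Fasl, Tnfsf4, Tnfsf14 and Tnfsf18 in most AOM groups.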
